A study of Homo sapiens with 18 samples.

Results

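Levels of 9 target genes of the transcription factor p53, *CDKN1A*, *MDM2*, *BAX*, *FAS*, *ZMAT3*, *FDXR*, *RRM2B*, *XPC* and *TP53I3*, were followed across 18 RNA sequencing libraries of the AML (acute myeloid leukemia) cell lines MV4-11 and THP1. The 9 genes were picked by name as textbook p53 targets, but with earlier results of these data known. All 9 were among the 45372 symbols of the table. Both cell lines carry a *KMT2A* rearrangement. The sample labels write both THP1 and THP-1. The treatments were DMSO, which is the vehicle, and IACS-010759 (IACS), an inhibitor of complex I of the mitochondrial electron transport chain, at 50 nM for either 8 h or 24 h, with 3 libraries per treatment and cell line. The time in DMSO is not given in the sources used here, and the same DMSO libraries were the control for both IACS timepoints. Only 1 line was compared with 1 other, so that the many features in which the cell lines differ cannot be told apart.

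The protein p53 is held at a low level in unstressed cells by the ubiquitin ligase MDM2, and DNA damage, oncogene activity or other stress releases it to bind DNA as a tetramer. Its targets stop the cell cycle, repair DNA, change metabolism or start apoptosis, and *MDM2* is itself a target, which closes a negative feedback loop. Several of the same targets can also be raised without p53, for example by ATF4 and CHOP, the transcription factors of the integrated stress response.

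Sequences near the start of each target are shown for how closely they match the element that p53 binds. The p53 response element is a pair of 10-base half-sites, and the window of 3000 bases on each side of the canonical transcript start was searched in GRCh38 for the 20-base match with the fewest mismatches and no spacer. The element is a palindrome, so that both strands were covered. Capitals mark the 4 core bases of each half-site, and each sequence is written 5′ to 3′ on the strand of its gene.
*CDKN1A*: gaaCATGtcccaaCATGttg
*MDM2*: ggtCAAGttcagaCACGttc
*BAX*: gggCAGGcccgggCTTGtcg
*FAS*: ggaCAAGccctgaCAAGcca
*ZMAT3*: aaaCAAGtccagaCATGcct
*TP53I3*: ataCATCctcagaCATGttt

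The *ZMAT3* sequence, at chr3:179070188-179070207 on the minus strand in intron 1, had 0 mismatches, as was found for 16 of 20033 protein-coding genes (0.0799%). The best match of *RRM2B*, also in intron 1, had 1 mismatch, and 1.25% of the genes had a match at least as good. The other 5 sequences had 2 mismatches, a match that 14.2% of all genes reached. That of *CDKN1A*, at chr6:36676449-36676468 on the plus strand, lay 2256 bases upstream of the canonical start, across the first annotated base of the gene, and was the first of 2 equally good matches. That of *MDM2*, at chr12:68808923-68808942 on the plus strand, lay in intron 1, as did those of *BAX* at chr19:48955213-48955232 and *FAS* at chr10:88991309-88991328, both on the plus strand. That of *TP53I3*, at chr2:24086781-24086800 on the minus strand, lay 1956 bases upstream. For *FDXR* and *XPC* the best match had 3 mismatches, which 73.9% of all genes reached, so that it did not set these genes apart. These matches are descriptions of the letters and were not tested as binding sites.

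The deposited values are TPM (transcripts per 1e6 transcripts), in which the reads of each gene are scaled by its length and every library sums to the same total. Depth cannot be read from this unit and was not recovered here. The 5 most abundant noncoding RNAs took 39.6% to 60.1% of a library's TPM, so that the level of every other gene moved with their share. Median-of-ratios scaling, which removes this, used factors of 0.79 to 1.25. In bulk RNA, fewer cells with a transcript and less of it per cell cannot be told apart. Of 11 AML and myeloid markers, 10 passed a mean of 1 TPM in either cell line (*CD14* did not), among them *SPI1* and *CEBPA*. The cell lines differed in these markers too: between the DMSO libraries, 5 of the 10 were lower in THP1 and 1 was higher by limma, at the thresholds given with the targets. Of all genes tested, 17.3% were called lower and 20.9% higher. *FLT3* (log2 fold change -2.58), *LYZ* (-2.44), *MPO* (-1.04) and *CD33* (-0.92) were lower, as was *MEIS1*, at most 0.0284 TPM in THP1, and *ITGAM* was higher (3.82). *MEIS1* passed the mean of 1 TPM only through MV4-11 and so had to differ. Of the 7 markers of other lineages, *PECAM1* alone passed, at 13.9 to 23.7 TPM in MV4-11 and 53.9 to 69.7 TPM in THP1. *EPCAM*, *CD3E* and *MS4A1* stayed under 0.2 TPM in all 18 libraries and *HBB* was at 0.

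In untreated cells, THP1 had lower levels of 8 of the 9 targets than MV4-11, from *CDKN1A* with a mean 6.62-fold lower to *MDM2* with a mean 1.81-fold lower. *TP53I3* was the exception and stood higher in THP1. Among the 14915 genes tested by limma, a difference was called where it exceeded 1.5-fold on the scale of log2(TPM + 1) and its Benjamini-Hochberg adjusted p was under 0.05. The test called 8 of the 9 targets lower and 0 higher, where 17.3% of all genes were called lower, 20.9% higher and 38.3% either way. The median log2 fold change of the 9 genes was -1.42 against 0.01 for all genes. *FAS* passed the filter on low values only through MV4-11, where it was higher, and so had to differ. Of the 8 targets that passed in both cell lines 7 were called lower, where 16.1% of all 12555 such genes were.

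**Figure D1:**
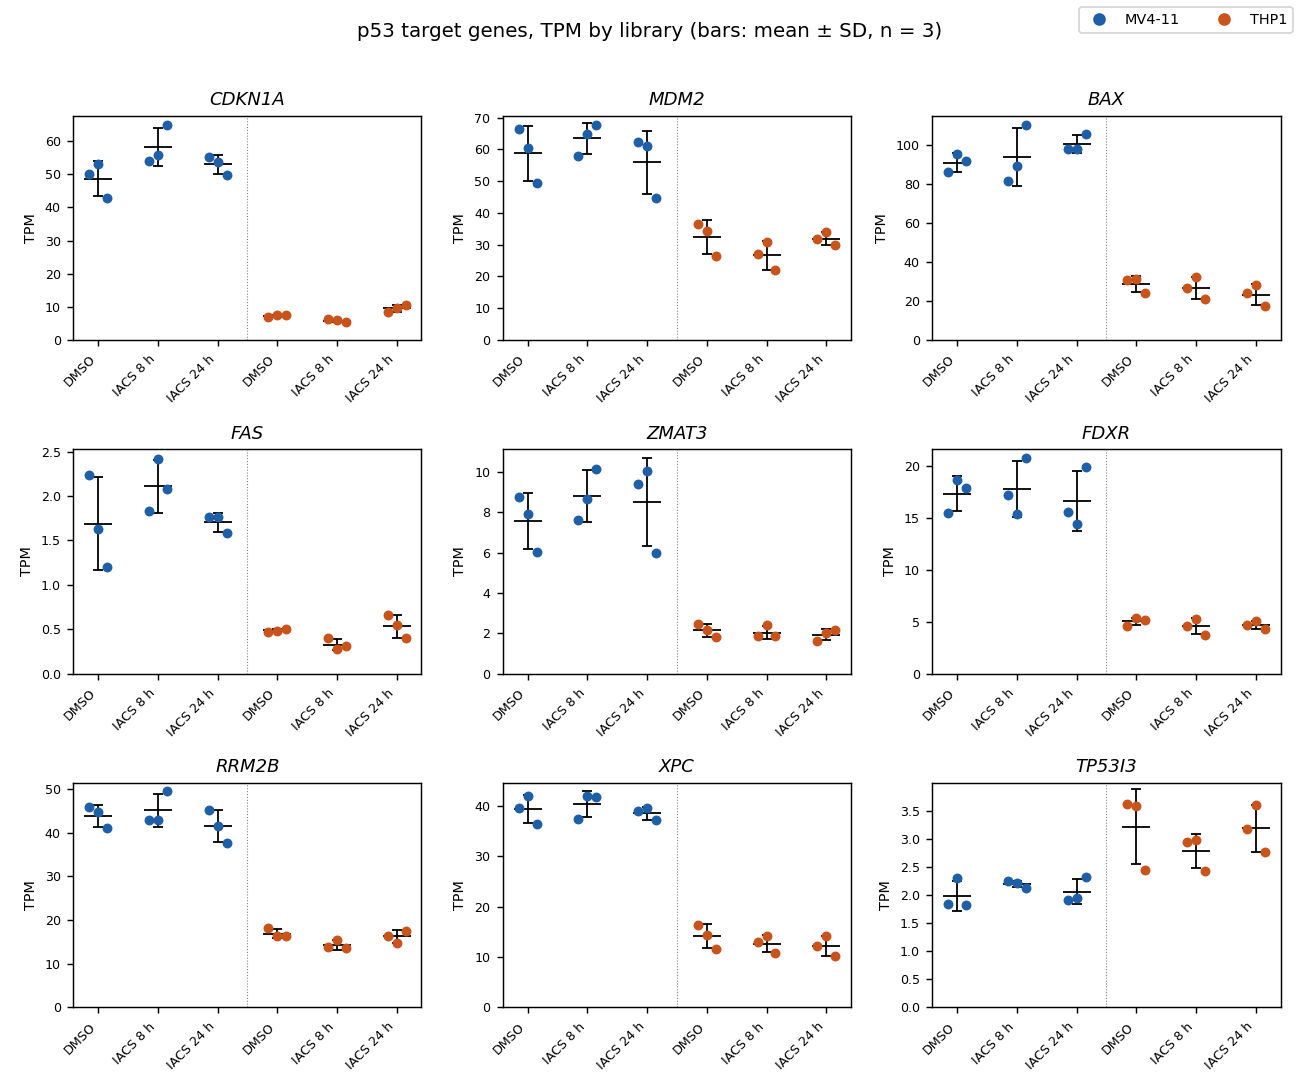
TPM of the 9 p53 targets in each library (points, MV4-11 in blue and THP1 in orange), with the mean and SD of the 3 libraries of each group as black bars. The y axes start at 0 and differ between panels. All 9 THP1 libraries sit below all 9 MV4-11 libraries in 8 panels, as for 22.2% of all genes tested. They sit above them in that of *TP53I3*, as for 17.6% of all genes. The 8 panels include that of *FAS*, which passed the filter only through MV4-11.

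*CDKN1A* (chr6:36676460-36687337, plus strand), which encodes p21, the cyclin-dependent kinase inhibitor that halts the cell cycle, differed most. It stood at 50.1, 53.2 and 42.8 TPM in the 3 MV4-11 DMSO libraries. In the 3 THP1 DMSO libraries it stood at 7.01, 7.53 and 7.53 TPM. The groups were far apart, with means of 48.7 ± 5.35 and 7.36 ± 0.30 TPM (SD, n = 3 each), and the log2 fold change was -2.57 (SE 0.12, limma adjusted p = 2.98e-12).

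*MDM2* (chr12:68808177-68845544, plus strand), the ligase that marks p53 for degradation, showed the smallest ratio of mean TPM among the 8 lower genes. Its levels were 66.2, 60.6 and 49.3 TPM in MV4-11 DMSO and 36.4, 34.4 and 26.3 TPM in THP1 DMSO. Its log2 fold change was -0.84 (SE 0.16, limma adjusted p = 0.000264). The third library had the lowest value in both cell lines, and the groups did not overlap.

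Both apoptosis genes were lower in THP1. *BAX* (chr19:48954815-48961798, plus strand), a pore-forming effector of the mitochondrial pathway, stood at 85.9, 95.4 and 91.6 TPM in MV4-11 DMSO and at 30.9, 31.1 and 24.2 TPM in THP1 DMSO. In log2 units *BAX* differed by -1.64 (SE 0.17, limma adjusted p = 2.50e-07). *FAS* (chr10:88953813-89029605, plus strand), which encodes a death receptor of the cell surface, was low in both cell lines. Its 3 MV4-11 values were 2.24, 1.62 and 1.20 TPM, and its 3 THP1 values 0.474, 0.482 and 0.507 TPM. For *FAS*, which passed the filter only through MV4-11, the log2 fold change was -0.83 (SE 0.14, limma adjusted p = 4.57e-05), with no overlap between the groups. The 1 added to TPM shrinks this value, and the mean TPM was 3.46-fold lower in THP1.

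The repair genes *XPC* and *RRM2B* moved in the same direction. *XPC* (chr3:14145147-14178621, minus strand), whose product recognises DNA damage in nucleotide excision repair, was measured at 39.5, 42.0 and 36.4 TPM in MV4-11 DMSO and at 16.4, 14.4 and 11.6 TPM in THP1 DMSO. Its log2 fold change was -1.42 (SE 0.14, limma adjusted p = 9.57e-08). *RRM2B* (chr8:102204502-102238961, minus strand) encodes a ribonucleotide reductase subunit that supplies nucleotides for repair. It was measured at 45.9, 44.6 and 41.1 TPM in MV4-11 DMSO and at 18.1, 16.3 and 16.3 TPM in THP1 DMSO. The log2 fold change of *RRM2B* was -1.33 (SE 0.11, limma adjusted p = 1.20e-08). In both genes the lowest MV4-11 value was more than 2-fold above the highest THP1 value.

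Of the genes with other roles, 2 were lower in THP1. *FDXR* (chr17:74862497-74873031, minus strand), the mitochondrial ferredoxin reductase, was at 15.5, 18.7 and 17.9 TPM in MV4-11 DMSO against 4.63, 5.35 and 5.13 TPM in THP1 DMSO. In log2 units *FDXR* differed by -1.60 (SE 0.15, limma adjusted p = 3.61e-08). *ZMAT3* (chr3:178960121-179072215, minus strand), an RNA-binding zinc finger protein, was at 8.75, 7.92 and 6.04 TPM against 2.48, 2.14 and 1.82 TPM. Its log2 fold change was -1.44 (SE 0.18, limma adjusted p = 1.60e-06). This is the gene whose best match had 0 mismatches, and its difference was close to the median of the 9.

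*TP53I3* (chr2:24077433-24085861, minus strand), an NADPH-dependent quinone oxidoreductase, went the other way. It stood at 1.84, 2.30 and 1.82 TPM in MV4-11 DMSO and at 3.63, 3.58 and 2.44 TPM in THP1 DMSO. The lowest THP1 value was above the highest MV4-11 value. The log2 fold change of 0.49 (95% interval 0.20 to 0.77, limma adjusted p = 0.00575) was past the p threshold but under the fold threshold. It passed both, at 0.65, with a pseudocount of 0.1 in place of 1, at 0.62 once the 5 noncoding RNAs were removed and the rest rescaled, and at 0.63 without the THP1 DMSO replicate 3.

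The separation held with IACS. Over all 9 libraries of a cell line, *CDKN1A* ranged from 42.8 to 64.7 TPM in MV4-11 and from 5.29 to 10.6 TPM in THP1, and each of the other 7 lower targets was likewise separated. *TP53I3* ranged from 1.82 to 2.32 TPM in MV4-11 and from 2.44 to 3.63 TPM in THP1. Thus all 9 THP1 libraries were below all 9 MV4-11 libraries for 8 of the 9 targets, as for 22.2% of all genes tested, and above them for 1, as for 17.6% of all genes. The 8 include *FAS*, which passed the filter only through MV4-11, where it was higher.

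The order of the targets by TPM, which is per length, differed between the cell lines. In MV4-11 DMSO the means ran from *BAX* (90.9 TPM) through *MDM2* (58.7), *CDKN1A* (48.7), *RRM2B* (43.9), *XPC* (39.3), *FDXR* (17.3), *ZMAT3* (7.57) and *TP53I3* (1.99) to *FAS* (1.69). The ranges of *MDM2* and *CDKN1A*, of *CDKN1A* and *RRM2B*, of *RRM2B* and *XPC*, and of *TP53I3* and *FAS* overlapped. In THP1 DMSO *MDM2* (32.4 TPM) and *BAX* (28.7) led with overlapping ranges. *RRM2B* (16.9), *XPC* (14.1), *CDKN1A* (7.36), *FDXR* (5.04), *TP53I3* (3.22), *ZMAT3* (2.15) and *FAS* (0.488) followed, and the ranges of *RRM2B* and *XPC* and of *TP53I3* and *ZMAT3* overlapped. *CDKN1A* thus stood close to *RRM2B* in MV4-11 and well below it in THP1.

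Of 18 p53 regulators, 17 were tested and *TP63* was too low. The test called 2 lower and 3 higher, which is 11.8% and 17.6% beside 17.3% and 20.9% of all genes, and their median log2 fold change was 0.07. Of the 2 lower, *CDKN2A* passed the filter only through MV4-11 and had to differ, and of the 16 that passed in both cell lines 1 was lower. *CDKN2A*, which encodes p16 and the MDM2 inhibitor p14ARF, was at 25.2, 28.1 and 23.7 TPM in MV4-11 DMSO and was listed at 0 in all 9 THP1 libraries, so that no fold is given. The phosphatase gene *PPM1D*, which is also a p53 target, was lower in THP1 (log2 fold change -0.82, limma adjusted p = 5.36e-05). The p53 relative *TP73* (1.38), the kinase gene *HIPK2* (0.70) and the DNA damage adaptor gene *TP53BP1* (0.63) were higher, with limma adjusted p of 2.42e-07, 0.000539 and 0.000988. *MDM4*, the partner of MDM2, had a log2 fold change of -0.16 and did not pass (limma adjusted p = 0.580).

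**Figure D2:**
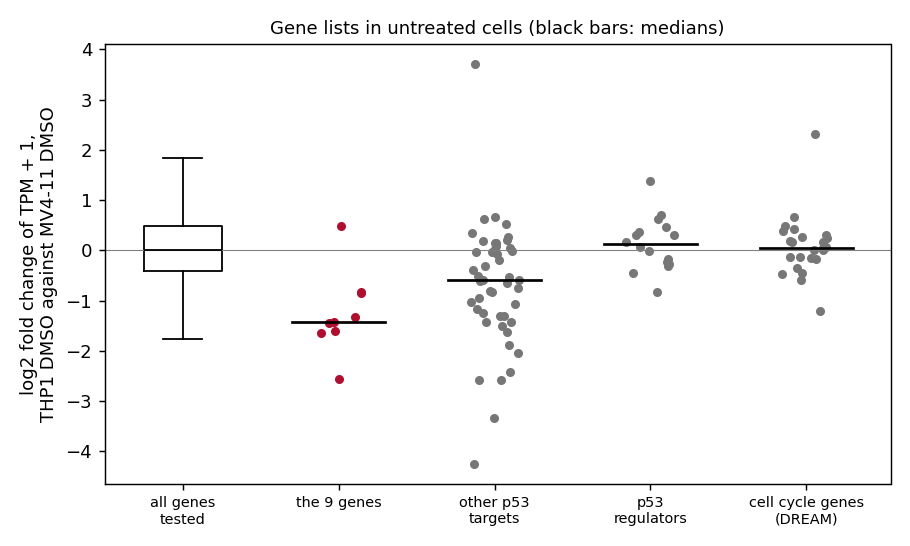
Log2 fold change of TPM + 1 between THP1 DMSO and MV4-11 DMSO for all genes tested (box from the first to the third quartile, outliers left out) and for each gene of 4 lists (points; black bars are medians). The 9 targets have a median of -1.42 and the other p53 targets one of -0.59. The regulators and the cell cycle genes have medians near 0, and *CDKN2A*, listed at 0 in THP1, is not drawn.

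A wider list of 50 other p53 targets was written from general knowledge, also with earlier results of these data known. It behaved in the same direction but less uniformly. Of these, 47 were tested (*EPHA2*, *GDF15* and *GLS2* were too low), 25 were called lower in THP1 and 3 higher, and the median log2 fold change was -0.59. In 6 of the 25 (*CMBL*, *EDA2R*, *SPATA18*, *TIGAR*, *TNFRSF10C* and *TP53INP1*) the gene passed the filter only through MV4-11 and had to differ. Of the 40 that passed in both cell lines, 19 (47.5%) were called lower and 2 (5%) higher, beside 16.1% and 15.4% of all such genes. Their median log2 fold change was -0.52. Of the 9 AML and myeloid markers that passed in both cell lines, 4 (44.4%) were lower and 1 (11.1%) higher, with a median of -0.41, so that this list moved with the wider target list, and its part in the result was not tested.

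**Figure D3:**
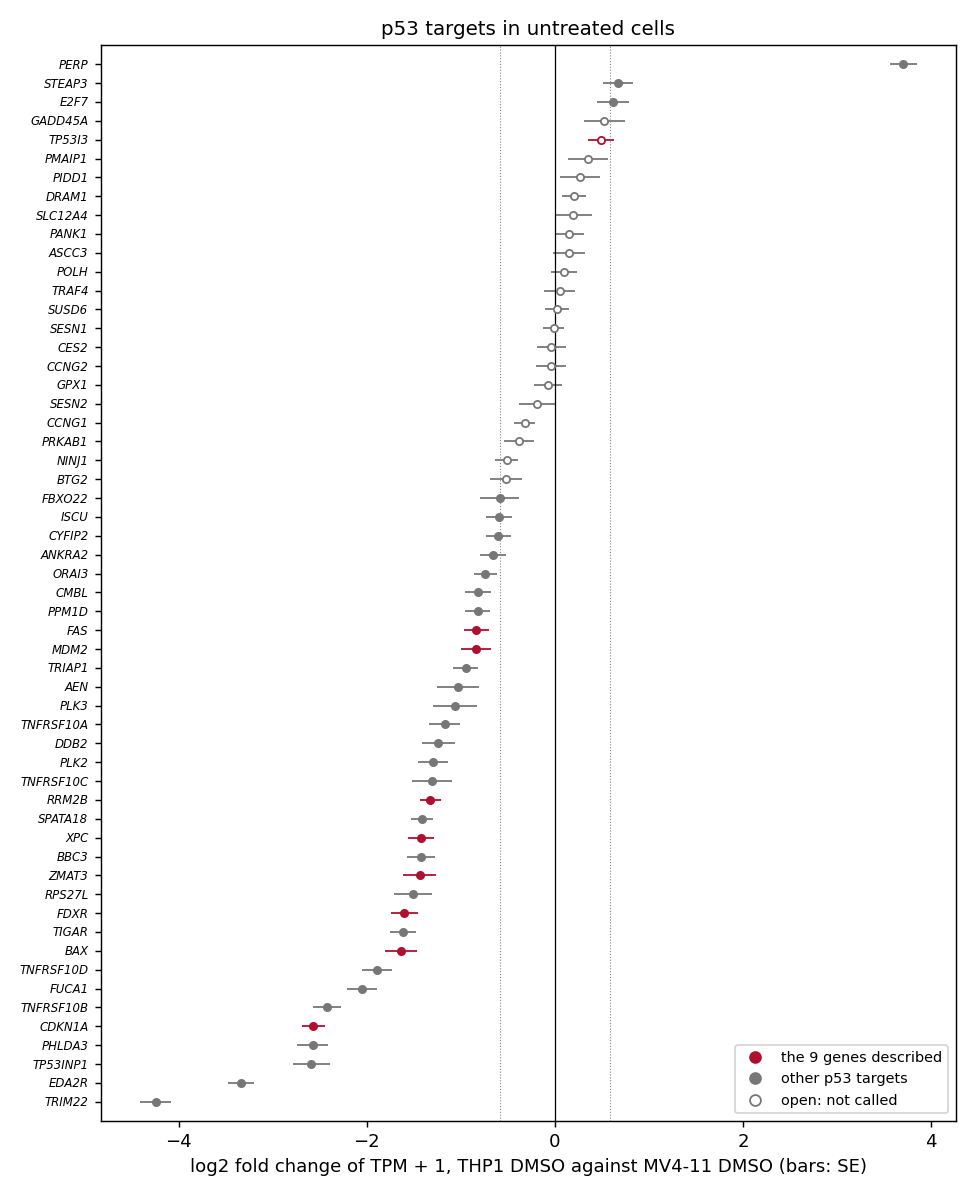
Log2 fold change of TPM + 1 between THP1 DMSO and MV4-11 DMSO with its SE for the 9 targets (red) and the 47 other p53 targets tested (grey), ordered by size. Filled points were called and dotted lines mark 1.5-fold, and most points lie left of 0, with *TRIM22* at -4.24 and *PERP* at 3.70 as the ends.

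The largest difference was that of *TRIM22*, an antiviral ubiquitin ligase gene, from 76.8, 70.1 and 67.0 TPM in MV4-11 DMSO to 3.56, 2.82 and 2.17 TPM in THP1 DMSO (log2 fold change -4.24, limma adjusted p = 2.59e-13). Next among the lower genes was the receptor gene *EDA2R* (-3.33), at 7.76 to 14.5 TPM in all MV4-11 libraries and at most 0.12 TPM in those of THP1. The added 1 shrinks differences of genes near 0 TPM. By the ratio of mean TPM, *EDA2R* was 172-fold lower in THP1 DMSO, *TRIM22* 25.0-fold lower and *PERP* 168-fold higher. The stress protein gene *TP53INP1* (-2.59) and the AKT inhibitor gene *PHLDA3* (-2.57) differed by about as much as *CDKN1A* on the log2 scale. Their mean TPM was 12.5-fold and 8.35-fold lower in THP1 DMSO, and that of *CDKN1A* 6.62-fold lower. *EDA2R* and *TP53INP1* passed the filter on low values only through MV4-11 and so had to differ.

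Genes linked to apoptosis, not all of which promote it, were among them. The TRAIL receptor genes *TNFRSF10B* (-2.42), *TNFRSF10D* (-1.89) and *TNFRSF10A* (-1.17) were lower in THP1. So was *TNFRSF10C* (-1.31), which passed the filter only through MV4-11 and had to differ. Also lower were *BBC3* (-1.43), which encodes the BH3-only protein PUMA, the nuclease gene *AEN* (-1.03) and *TRIAP1* (-0.95). *PMAIP1*, which encodes the BH3-only protein NOXA, was not (0.35, limma adjusted p = 0.169). Its THP1 DMSO libraries stood at 19.02, 17.1 and 10.3 TPM, around the MV4-11 values of 12.8, 10.4 and 11.5 TPM.

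Among genes of other roles, the lysosomal fucosidase gene *FUCA1* (-2.05), the metabolic regulator *TIGAR* (-1.62), the ribosomal protein gene *RPS27L* (-1.51), *SPATA18* (-1.42), the kinase genes *PLK2* (-1.30) and *PLK3* (-1.06) and the damage recognition gene *DDB2* (-1.24) were lower. *PPM1D*, *CMBL*, *ORAI3*, *ANKRA2*, *CYFIP2*, *ISCU* and *FBXO22* made up the rest, between -0.82 and -0.59. Values near 0 were seen for *SESN1* (-0.01), *CES2* (-0.04), *TRAF4* (0.05) and the polymerase gene *POLH* (0.09), none of which passed. The genes called higher were *PERP* (3.70), a desmosome and apoptosis gene that passed the filter only through THP1, *STEAP3* (0.67) and *E2F7* (0.62).

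Cell cycle genes that p53 is known to lower through p21 and the DREAM complex had few calls between the cell lines. All 24 of these genes in the table were tested, 2 (8.33%) were called higher in THP1 and 1 (4.17%) lower, beside 20.9% and 17.3% of all genes, and their median log2 fold change was 0.06. *CDC20*, an activator of the anaphase-promoting complex, was at the upper end (2.32), and *CKS1B* (0.67) was the other one called higher. The kinase gene *AURKB* (-1.21) was at the lower end.

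With IACS, 0 of the 9 targets were called in either cell line at either timepoint by limma. Calls over all genes were few in this fit. Of 13542 genes in MV4-11 the test called 0.0148% at 8 h and 0.0886% at 24 h. Of 13928 genes in THP1 it called 0.0144% and 0.0431%. These counts depended on the replicate block, in which the replicate number is a term of the fit: in THP1 at 24 h, where the numbers paired the libraries, 6 genes became 296 with it, and in MV4-11 at 24 h 12 became 100, while the targets called stayed at 0. At an unadjusted p under 0.05 and a change beyond 1.5-fold, the count for the targets was also 0 in each comparison, where 0.672%, 1.99%, 0.761% and 2.20% of all genes were called. An exact Kruskal-Wallis test was run over the 3 groups of a cell line, so that 1 unadjusted p served both timepoints. With the same fold at each timepoint it also gave 0 targets, beside 0.207%, 0.812%, 0.115% and 0.445% of all genes. *CDKN1A* in THP1 had an exact Kruskal-Wallis p of 0.00357 and stayed under the fold threshold at both timepoints. *FAS* was too low in THP1 to be tested, which left 8 targets there.

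**Figure D4:**
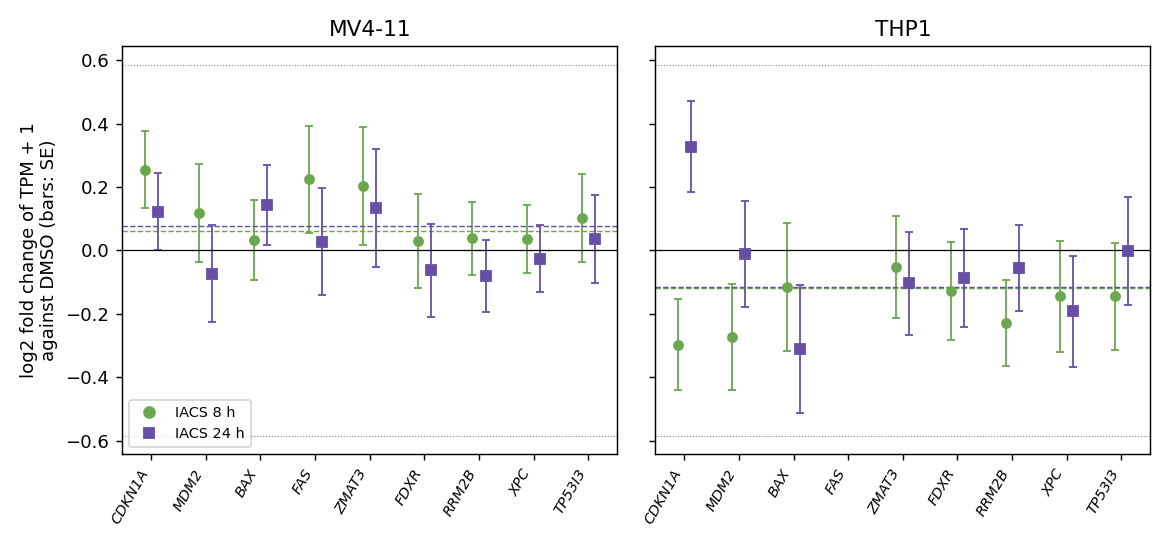
Log2 fold change of TPM + 1 with IACS against DMSO, with its SE, for each target after 8 h (green circles) and 24 h (purple squares). Dashed lines give the median of all genes in the same comparison and dotted lines 1.5-fold in either direction. All points lie between the dotted lines, and *FAS*, too low in THP1, is not drawn there.

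The median log2 fold change of the targets was 0.10 at 8 h and 0.03 at 24 h in MV4-11, where that of all genes was 0.06 and 0.08. In THP1 it was -0.14 at 8 h and -0.07 at 24 h, where that of all genes was -0.12 in both. The medians of the targets thus lay close to those of the table as a whole. Single targets moved apart from it without being called, as *CDKN1A* (0.33) and *BAX* (-0.31) did in THP1 at 24 h. Median-of-ratios scaling brought the medians of all genes to between -0.01 and 0.00. The signs of small changes turned with it: at 8 h in MV4-11, *BAX*, *FDXR*, *RRM2B* and *XPC* changed from between 0.03 and 0.04 to between -0.04 and -0.03.

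As deposited, *CDKN1A* had the largest change of the targets in 3 of the 4 comparisons, all but MV4-11 at 24 h. In MV4-11 it stood at 54.0, 56.0 and 64.7 TPM after 8 h of IACS and at 55.3, 53.8 and 49.7 TPM after 24 h. The 8 h libraries were all above the DMSO libraries, as were those of 7.13% of all genes, while the 24 h libraries overlapped with both. By limma, the log2 fold change was 0.25 at 8 h (95% interval -0.01 to 0.52, adjusted p = 0.982). At 24 h it was 0.12 (95% interval -0.14 to 0.39, limma adjusted p = 0.734).

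In THP1, *CDKN1A* stood at 6.22, 5.92 and 5.29 TPM after 8 h of IACS and at 8.30, 9.67 and 10.6 TPM after 24 h. The 3 groups did not overlap, with the 8 h libraries lowest, DMSO between and the 24 h libraries highest. All 3 libraries were below DMSO at 8 h for 4.06% of all genes, and above it at 24 h for 3.32%. By limma, the 8 h change was -0.30 in log2 units (95% interval -0.61 to 0.02, adjusted p = 0.941). The 24 h change was 0.33 (95% interval 0.01 to 0.64, limma adjusted p = 0.566). Scaled by the median of ratios these were -0.18 and 0.43.

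Same-numbered libraries of THP1 DMSO and 24 h deviated together, and a replicate block gave the 24 h change of *CDKN1A* a limma adjusted p of 0.0750. With the block and the scaling together, a setting chosen after seeing the data, it had a limma adjusted p of 0.0456 and stayed under the fold threshold. The 24 h libraries were set against the 8 h libraries directly only after the values were seen. The log2 fold change of *CDKN1A* in THP1 was then 0.62 (SE 0.14, 95% interval 0.31 to 0.94), which did not pass over all genes (limma adjusted p = 0.311). Of all genes 0.00718% were called.

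The 8 h changes of *CDKN1A* had opposite signs in the cell lines, and this difference was tested as an interaction. It was -0.55 on the log2 scale (THP1 minus MV4-11, 95% interval -0.92 to -0.19) and did not pass after adjustment over 12555 genes (limma adjusted p = 0.910). With median-of-ratios scaling it was -0.35 (limma adjusted p = 0.853). At 24 h it was 0.20 (limma adjusted p = 0.736). The interaction called 0 of 8 targets at either timepoint, and 0.00796% of all genes at each.

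*MDM2* showed no change beyond the spread between libraries. Its levels were 58.0, 64.7 and 67.6 TPM after 8 h and 62.3, 61.1 and 44.6 TPM after 24 h in MV4-11, and 27.2, 30.8 and 21.9 TPM and then 31.8, 33.9 and 29.9 TPM in THP1. Each of these groups overlapped with its DMSO libraries. The largest log2 fold change was -0.27 in THP1 at 8 h (95% interval -0.64 to 0.09, limma adjusted p = 0.941), and at 24 h it was -0.01 in THP1.

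*BAX* stood at 81.5, 89.2 and 110.3 TPM after 8 h and at 97.8, 97.8 and 105.8 TPM after 24 h in MV4-11. The 24 h libraries were all above DMSO, as were those of 19.4% of all genes, with a log2 fold change of 0.14 (95% interval -0.13 to 0.42, limma adjusted p = 0.700). In THP1 it stood at 26.8, 32.1 and 21.1 TPM after 8 h and at 24.0, 28.4 and 17.4 TPM after 24 h, in each case overlapping with DMSO. The 24 h log2 fold change there was -0.31 (95% interval -0.75 to 0.13, limma adjusted p = 0.654). With the replicate block the limma adjusted p was 0.0458, still under the fold threshold, and with scaling added 0.0678. *FAS* stood at 1.83, 2.42 and 2.08 TPM and then 1.76, 1.77 and 1.58 TPM in MV4-11, and its log2 fold change was 0.22 at 8 h (95% interval -0.14 to 0.59, limma adjusted p = 0.982). In THP1, where *FAS* was too low to be tested, its values of 0.402, 0.275 and 0.307 TPM at 8 h were all below DMSO. The same held for 4.06% of the genes that were tested there. Its values at 24 h (0.658, 0.544 and 0.401 TPM) were not all below DMSO.

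*RRM2B* overlapped with DMSO in MV4-11, at 42.8, 43.0 and 49.5 TPM after 8 h and 45.1, 41.6 and 37.7 TPM after 24 h. In THP1 it was at 13.8, 15.5 and 13.5 TPM after 8 h, all below DMSO, as for 4.06% of all genes, and at 16.5, 14.7 and 17.6 TPM after 24 h, which overlapped with DMSO. The 8 h log2 fold change was -0.23 (95% interval -0.53 to 0.07, limma adjusted p = 0.941). *XPC* stood at 37.3, 41.9 and 41.7 TPM and then 38.9, 39.5 and 37.1 TPM in MV4-11, and at 13.1, 14.1 and 10.8 TPM and then 12.3, 14.2 and 10.3 TPM in THP1. It overlapped with DMSO throughout, with log2 fold changes from -0.19 to 0.04.

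*FDXR* was at 17.2, 15.4 and 20.8 TPM and then 15.6, 14.4 and 19.9 TPM in MV4-11, and at 4.62, 5.29 and 3.75 TPM and then 4.66, 5.06 and 4.33 TPM in THP1. *ZMAT3* was at 7.65, 8.65 and 10.2 TPM and then 9.42, 10.1 and 6.01 TPM in MV4-11, and at 1.86, 2.39 and 1.85 TPM and then 1.62, 2.02 and 2.15 TPM in THP1. *TP53I3* was at 2.25, 2.22 and 2.13 TPM and then 1.91, 1.96 and 2.32 TPM in MV4-11, and at 2.95, 2.98 and 2.44 TPM and then 3.18, 3.61 and 2.78 TPM in THP1. All of these groups overlapped with DMSO. Their log2 fold changes lay between -0.14 and 0.20. The bounds of their 95% intervals farthest from 0 were 0.61, for *ZMAT3* at 8 h in MV4-11, and -0.51, for *TP53I3* at 8 h in THP1.

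With IACS, 0 of the p53 regulators were called by limma, of 17 tested in MV4-11 and 16 in THP1, and 0 were past an unadjusted p with the same fold. Their lowest value was that of *TP73* in THP1 at 24 h (-0.51, limma adjusted p = 0.503).

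Of the 50 other p53 targets, 46 were tested in MV4-11 and 41 in THP1, and 0 were called by limma in any of the 4 comparisons. At an unadjusted p with the same fold, *SESN2* alone was past the threshold, at 8 h in MV4-11 and at both timepoints in THP1. *SESN2* encodes a leucine sensor that restrains mTORC1 and is also an ATF4 target. It stood at 5.004, 5.23 and 4.52 TPM in MV4-11 DMSO and at 8.06, 7.13 and 8.60 TPM after 8 h of IACS, and at 3.32, 4.33 and 5.0 TPM in THP1 DMSO and 10.03, 9.71 and 6.13 TPM after 24 h. These groups did not overlap, as for 7.13% and 3.32% of all genes in that direction, and the log2 fold changes were 0.59 (limma adjusted p = 0.380) and 0.87 (limma adjusted p = 0.385). The lowest values of the list were those of *TRIAP1* in MV4-11 (-0.27 at 8 h and -0.47 at 24 h), *PANK1* in THP1 at 8 h (-0.37) and *PLK2* in THP1 at 24 h (-0.58). *PIDD1* was highest in MV4-11 at 24 h (0.49).

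The 7 p53 targets that ATF4 or CHOP can also raise were *CDKN1A*, *SESN2*, *DDIT4*, *BBC3*, *PMAIP1*, *TNFRSF10B* and *GDF15*, the last of which was too low to test. *DDIT4*, an mTORC1 inhibitor gene, went from 5.61, 5.77 and 6.72 TPM in MV4-11 DMSO to 10.1, 10.2 and 13.4 TPM after 8 h of IACS. Its log2 fold change was 0.79 and did not pass (limma adjusted p = 0.122). *BBC3* was at 0.43 in THP1 at 24 h (limma adjusted p = 0.539), while *PMAIP1* lay between -0.05 and -0.01 and *TNFRSF10B* between 0.06 and 0.16 in the 4 comparisons. The median of the 6 tested was 0.24 and 0.17 in MV4-11 and 0.12 and 0.38 in THP1, above the median of all genes in each comparison. By limma, 0 of the 6 were called in any of the 4 comparisons.

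In the list of ATF4 and its targets, the glutathione-degrading enzyme gene *CHAC1* rose in MV4-11 at 8 h (log2 fold change 1.47, limma adjusted p = 0.00315) and was also called at 24 h (1.07, limma adjusted p = 0.0212). *PHGDH*, the first enzyme of serine synthesis, was called higher in MV4-11 at 24 h (1.03, limma adjusted p = 0.0334). The *CHAC1* call at 8 h held without any 1 library. Both calls at 24 h were lost when any library but the 24 h replicate 3 was left out, with limma adjusted p of up to 0.132 for *CHAC1* and 0.245 for *PHGDH*, and log2 fold changes of at least 1.03 and 0.94. In THP1, 0 genes of this list were called, and its median was 0.43 at 8 h and 0.64 at 24 h, where that of all genes was -0.12.

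The 24 cell cycle genes lowered through p21 and DREAM were all below 0 at 8 h in both cell lines, and 0 were called. Their median was -0.22 in MV4-11 and -0.24 in THP1, which is 0.28 and 0.12 below the median of all genes, and 24 and 23 of them were under that median. At 24 h these medians were -0.12 and -0.18, and 0.20 and 0.07 below that of all genes. Of the 24 genes, 21 in MV4-11 and 16 in THP1 were then under the median of all genes. *CENPA* was lowest at 8 h in MV4-11 (-0.47, limma adjusted p = 0.687), *RRM2* at 8 h in THP1 (-0.40), *MCM6* at 24 h in MV4-11 (-0.46) and *MYBL2* at 24 h in THP1 (-0.91, limma adjusted p = 0.367).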

How the data were processed

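The authors deposited TPM per gene symbol for 18 libraries of 2 cell lines. As the paper's methods state, total RNA was made into TruSeq libraries and sequenced as paired-end reads, which were aligned to GRCh38 and counted in CLC Genomics Workbench. The annotation and the use of strand are not given in the sources used here. The labels call the 3 libraries of a group independent replicates, and p-values measure the spread between them. All columns were used (0 left out).

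Log2(TPM + 1) was tested by limma 3.58.1 (R 4.3.3) with a variance trend, two-sided, after genes whose mean was under 1 TPM were removed. The cell lines were compared in 1 fit of 18 libraries, IACS with DMSO in 1 fit of 9 libraries per cell line, and the change with IACS between cell lines as an interaction over 12555 genes. All p-values were adjusted over all genes of a comparison. The scripts were tested on simulated data. The main test differs from the Kruskal-Wallis and Dunn tests of the paper's methods, since 3 against 3 libraries cannot pass those after adjustment. As an alternative, an exact Kruskal-Wallis test was run over the 3 groups of each cell line, without the Dunn tests.

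The 9 targets and the lists were chosen with earlier results of these data known, and 1 gene of the list of p53 regulators is not reported here. Named are all 9 targets, *MDM4*, *CDKN2A*, the targets shared with ATF4, every called gene of a list, the ends of each list, and the 5 genes most like *CDKN1A* and *MDM2*. Further genes with values near 0 or not called, the markers, *GDF15* and *EPHA2* were chosen after their values were seen. Coordinates are those of GENCODE release 44. Same-numbered libraries were taken as paired where the deviations from the group means correlated above 0.1 in all 3 pairs. This held for THP1 DMSO and 24 h (0.15 to 0.32) and for no other comparison with DMSO, where the lowest was 0.03 to 0.07.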

Additional observations from a re-analysis of the deposited data

How the results depend on the processing

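The call of 8 lower targets between the cell lines was kept under all alternatives run but 1. There, a filter at a mean of 10 TPM left 6 targets, all called lower. Of these, *CDKN1A* and *FDXR* passed that filter only through MV4-11 and so had to differ. With *TP53I3* the count was 9 with a pseudocount of 0.1, without the 5 noncoding RNAs and without the THP1 DMSO replicate 3. With IACS and in the interactions, 0 targets were called under every alternative. The number of all genes called moved more. Between the cell lines it was 5707 and fell to 2965 at a mean of 10 TPM (5572 to 5859 leaving out 1 library in turn). For IACS in MV4-11 at 8 h it was 2, and became 1 with a pseudocount of 0.1, 0 at a mean of 10 TPM, 4 with median-of-ratios scaling, 8 without the noncoding RNAs, 10 with the replicate block, 4 with the block and scaling (chosen after seeing the data), 91 at an unadjusted p, 8 with only the 6 libraries compared, 28 by the exact Kruskal-Wallis test, and 1 to 2 leaving out a library (1 without DMSO replicate 1 or 2 or 8 h replicate 2). At 24 h it was 12, and became 6 with a pseudocount of 0.1, 2 with no filter, 7 at a mean of 10 TPM, 82 with scaling, 119 without the noncoding RNAs, 100 with the replicate block, 116 with block and scaling, 269 at an unadjusted p, 99 with 6 libraries, 110 by Kruskal-Wallis, and 0 to 92 leaving out a library (92 without 24 h replicate 3, at most 1 without any other). In THP1 at 8 h it was 2, and became 1 with no filter, 9 with the replicate block, 4 with block and scaling, 106 at an unadjusted p, 16 by Kruskal-Wallis, and 1 to 2 leaving out a library (1 without DMSO replicate 2 or any 8 h replicate). At 24 h, where the numbers pair the libraries, it was 6, and became 296 with the replicate block (55 higher, 241 lower), 178 with block and scaling, 14 at a mean of 10 TPM, 105 with scaling, 93 without the noncoding RNAs, 307 at an unadjusted p, 62 by Kruskal-Wallis, and 1 to 16 leaving out a library (2 without DMSO replicate 1, 1 without DMSO replicate 2 or 24 h replicate 1, 16 without 24 h replicate 2, 11 without 24 h replicate 3). Of 1 gene in the 8 h interaction, 0 were left with scaling, and 184 were past an unadjusted p. The 1 gene in the 24 h interaction became 2 with no filter, 4 without the noncoding RNAs, 94 with the replicate block, 123 with block and scaling and 505 at an unadjusted p. Both stayed at 1 leaving out any library. The cause of these shifts was not tested. In THP1 at 24 h, scaling moved the split of calls from 1 higher and 5 lower to 47 higher and 58 lower, and in MV4-11 from 10 higher and 2 lower to 55 higher and 27 lower.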

Other observations

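After subtraction of each cell line's mean, the 5 genes whose log2(TPM + 1) followed that of *CDKN1A* most closely over the 18 libraries, among the 8843 genes that averaged 5 TPM or more in each cell line, were *AC092724.1*, *SAMD9*, *C1RL*, *ITPR2* and *FOXO3* (Pearson coefficients of 0.90 to 0.77). For *MDM2* they were *FAM172A*, *PPP2R2A*, *PHF14*, *ZNF254* and *RB1* (0.96 to 0.94). The 2 lists shared no gene. The libraries share their noncoding RNA share and their groups, so that these coefficients are descriptions without a test. Within a cell line, the 36 pairs of targets had a median coefficient of 0.38 in MV4-11 and 0.44 in THP1 over 9 libraries, and of 0.28 and 0.17 after median-of-ratios scaling.

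*GDF15*, a secreted stress factor and p53 target that was too low to test, was listed at 0.165, 0.149 and 0.169 TPM in THP1 DMSO, at 0.816, 1.36 and 0.342 TPM after 8 h of IACS and at 1.44, 1.51 and 0.484 TPM after 24 h. In MV4-11 it was at most 0.455 TPM in any library. *EPHA2* was at 0.758 to 0.960 TPM in the THP1 libraries and at most 0.0681 TPM in those of MV4-11.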
